A study of Mus musculus with 18 samples.

Results

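The genes described here encode the enzymes and transporters with which a muscle cell takes up glucose, breaks it down to pyruvate and lactate, stores and mobilises glycogen, and buffers ATP through phosphocreatine and the adenylate pool. They were chosen as a named list of 35 genes, and a gene counted as measured when at least 1 probe set of the array named it and no other gene. By this rule 32 of the 35 were measured, out of 22180 genes on the array table. Where a gene had several such probe sets (Slc2a1, Gapdh, Pgam1 and Ckm), the brightest by mean over the 18 arrays was used. Gpi1, Eno1 and Aldoa were not analysed here, because no probe set named Gpi1 or Eno1 alone and Aldoa lay on a probe set that names several genes.

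Glycolysis splits glucose into pyruvate and yields ATP without oxygen, and skeletal muscle is among the tissues that depend on it most during short, intense work. Several of its steps are carried by more than one gene, with a muscle form (the transporter Slc2a4, the phosphofructokinase Pfkm, the mutase Pgam2, the enolase Eno3, the glycogen phosphorylase Pygm, the creatine kinase Ckm) and one or more forms that most cells use. Several of the muscle forms, Ckm among them, are induced as myoblasts become myotubes. Mef2c is a transcription factor of muscle differentiation, and Nup210 is a membrane protein of the nuclear pore.

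The cells were C2C12, an immortal line of mouse myoblasts whose cells fuse to multinucleate myotubes once serum is withdrawn. Cultures grown in 20% fetal bovine serum were switched to 2% horse serum, infected 36 h later with a lentivirus carrying an shRNA, and harvested after another 48 h. There were 6 arrays of total RNA for each shRNA: against Nup210 (labelled as Nup210 depleted), against Mef2c, and a control shRNA carried by the same kind of virus. All 3 groups had thus been infected and differentiated for the same time. The labels give neither how many shRNA sequences were used per gene nor whether the arrays came from separate cultures, so p-values measure the spread between these arrays, which may be technical.

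Values are on a log2 scale, on which a step of 1 doubles the signal. Since probe sets differ in brightness, the level of a gene was compared only with its own level in other arrays. Each gene was tested with limma across all 22180 genes, with Benjamini-Hochberg adjustment and a threshold of 0.05. All statements of the form "fell" or "rose" mean that the adjusted p was below that threshold, n was 6 arrays a group, and errors are standard errors. The 2 comparisons with control share the 6 control arrays, so their values are set side by side and no count of genes changed in both is read as evidence.

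Mef2c itself stood at 17.9% of the control level in the Mef2c shRNA arrays (log2 difference -2.48, limma adjusted p = 2.80e-11). The mean of Nup210 was 5.65 with the Nup210 shRNA and 5.75 in control arrays, or 93.1% of control (limma adjusted p = 0.402), with overlapping arrays, so lower Nup210 mRNA was not detectable against control and the group is called by its label. Against the Mef2c shRNA arrays Nup210 was lower (-0.23, limma adjusted p = 0.0178), also with overlapping arrays. Arrays within a group correlated at 0.991 to 0.995. The 9 myotube markers (Myh3, Acta1, Des, Myog and others) were all above background, defined as 5.47, the level under which 95% of 1394 olfactory and vomeronasal receptor genes lay. Of the 32 genes, 28 lay above it, and Slc2a3, Phkg1, Ppp1r3c and Ckmt2 lay below it. The Nup210 means of 5.65 and 5.75 lay close to this background, where log2 differences are compressed, so a loss of Nup210 mRNA may be understated.

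Some marker lists of cell states differed between the groups, and others overlapped. The mean of 5 dividing-cell markers ran between 7.20 and 7.71 in Nup210 shRNA arrays, between 6.63 and 7.07 in Mef2c shRNA arrays and between 7.36 and 7.80 in control arrays, and 3 of the 5 fell in the Mef2c shRNA arrays. The mean of the 9 myotube markers lay between 11.75 and 11.93 in Nup210 shRNA arrays, between 11.73 and 11.93 in Mef2c shRNA arrays and between 11.89 and 11.997 in control arrays. Of these 9, only Myh3 and Mymk fell with the Nup210 shRNA, and only Myh3 and Acta1 with the Mef2c shRNA. A list of 9 hypoxia-response genes that holds no glycolytic gene averaged between 8.48 and 8.58, between 8.44 and 8.53, and between 8.63 and 8.71 in the Nup210 shRNA, Mef2c shRNA and control arrays, with 3 of 9 genes lower in each shRNA group. Adipocyte markers, of which Adipoq, Fabp4 and Cidec were below background, averaged 5.65 to 5.80 in Nup210 shRNA arrays, 5.89 to 5.98 in Mef2c shRNA arrays and 5.55 to 5.73 in control arrays. Fibroblast markers, of which Lum and Tcf21 were below background, averaged 7.47 to 7.62, 7.39 to 7.55 and 7.32 to 7.45 in the same order of groups. Myoblast and reserve-cell markers averaged 8.56 to 8.69, 8.47 to 8.57 and 8.54 to 8.67. With the Nup210 shRNA no dividing-cell or adipocyte marker was called, 2 fibroblast markers rose, and 1 myoblast marker rose and 1 fell. With the Mef2c shRNA 2 adipocyte markers rose, 1 fibroblast marker rose and 1 fell, and 1 myoblast marker rose and 2 fell. Over all genes 5.11% fell and 3.05% rose with the Nup210 shRNA, and 6.42% and 4.34% with the Mef2c shRNA. The part of these lists in the results below was not tested.

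With the Nup210 shRNA, 9 of the 32 genes fell (28.1%), by 0.11 to 0.52, and none rose. The glucose transporters Slc2a1 and Slc2a4, the hexokinase Hk1, the mutase Pgam2, the pyruvate kinase Pkm, the glycogen enzymes Pygm and Gys1, the creatine kinase Ckm and the AMP deaminase Ampd1 made up the 9. Among all genes tested 5.11% were called lower and 3.05% higher, and among genes above background 8.52% were lower and 4.62% higher. The median difference was -0.097 over the 32 genes and 0.015 over all genes, and 24 of the 32 lay below 0. In 8 of the 32 genes (25.0%) the 6 Nup210 shRNA arrays did not overlap the 6 control arrays, against 5.63% of all genes.

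With the Mef2c shRNA, 9 of the 32 genes also fell (28.1%), by 0.12 to 0.47, while Ampd1 and the glycogen primer Gyg rose (6.25%). The 9 were Slc2a1, the phosphofructokinases Pfkl and Pfkp, the kinase Pgk1, the mutase Pgam1, Pkm, the lactate dehydrogenase Ldha, the pyruvate dehydrogenase kinase Pdk4 and Gys1. Among all genes 6.42% were called lower and 4.34% higher, and among genes above background 10.7% were lower and 6.50% higher. The median difference was -0.051 over the 32 genes and 0.020 over all genes. In 8 of the 32 genes (25.0%) the Mef2c shRNA arrays did not overlap control, against 7.74% of all genes. In bulk RNA, a smaller share of differentiated cells and less of a transcript per cell cannot be told apart, for these and all following differences.

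The 2 shRNA groups were also set against each other. Between them 8 genes (25.0%) were lower in Nup210 shRNA than in Mef2c shRNA arrays, against 6.93% of all genes: Slc2a4, Pgam2, Ldhb, Pygm, Gyg, Phkg1, Ckm and Ampd1. The genes Pfkl, Pgk1, Pgam1 and Pygb (12.5%) were higher in Nup210 shRNA arrays, against 7.10% of all genes. Among genes above background the shares were 11.0% lower and 11.5% higher, the second close to that of the 32 genes. In 11 genes (34.4%) these groups did not overlap, against 8.62% of all genes.

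**Figure D1:**
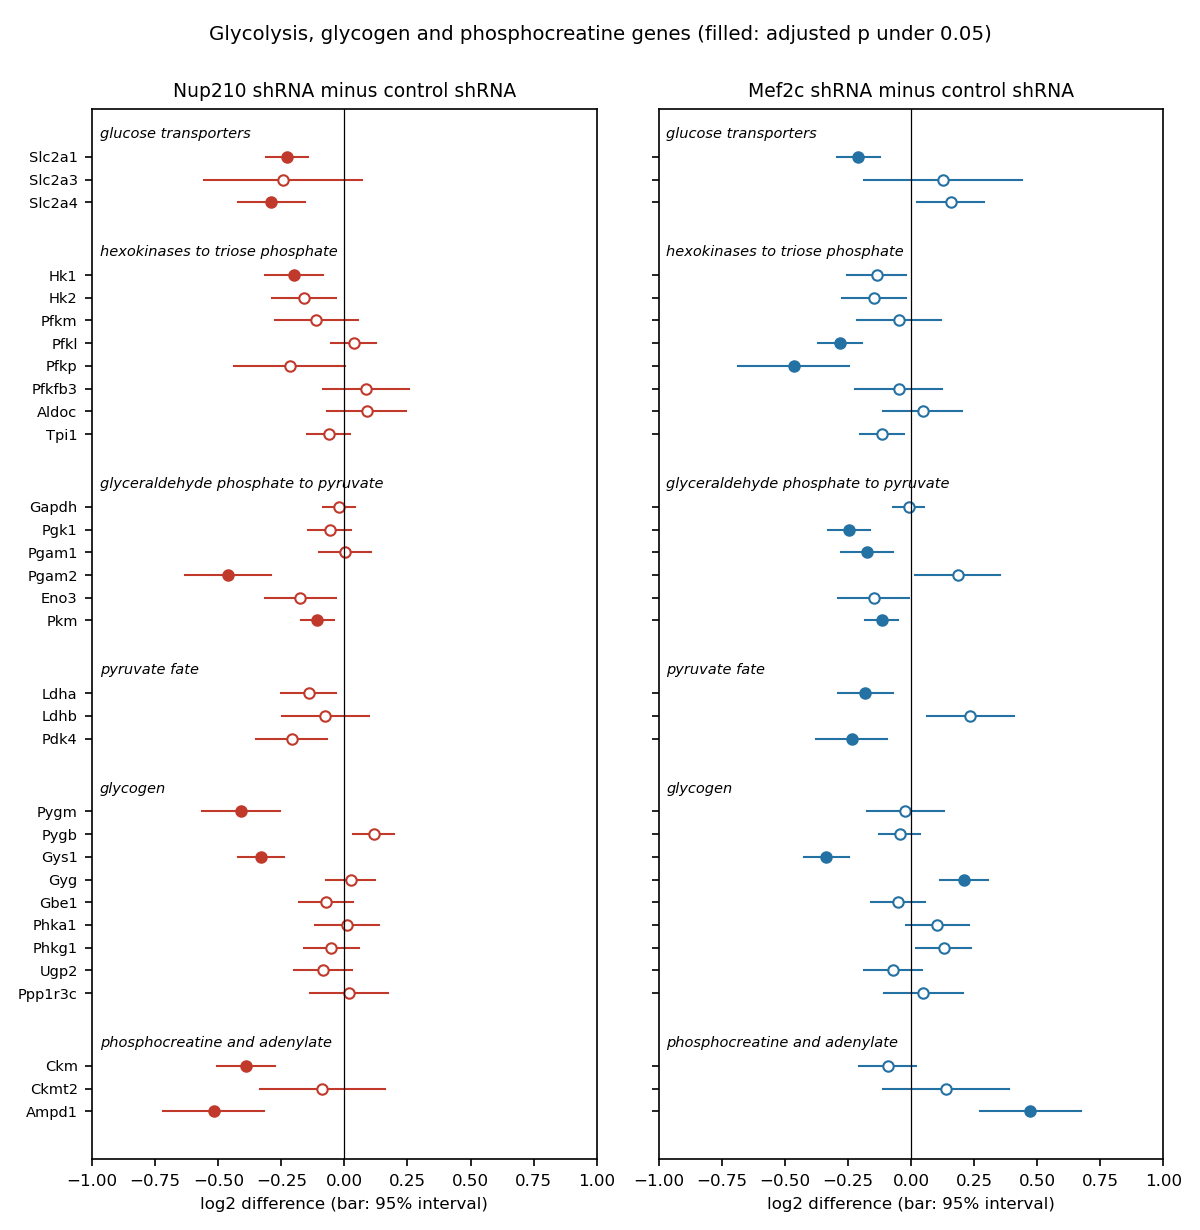
Log2 difference from control of each of the 32 genes, grouped by role, with its 95% interval, for Nup210 shRNA (left) and Mef2c shRNA (right); filled points passed the test. Ampd1 lies at -0.52 on the left and at 0.47 on the right, while Gys1 lies at -0.33 and -0.34.

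Of the 32 genes, 11 are forms characteristic of muscle (Slc2a4, Hk2, Pfkm, Pgam2, Eno3, Pygm, Phka1, Phkg1, Ckm, Ckmt2 and Ampd1), a division made after the values were seen. With the Nup210 shRNA, 5 of these 11 fell and none rose, with a median difference of -0.17, and 4 of the other 21 fell, with a median of -0.072. With the Mef2c shRNA none of the 11 fell and Ampd1 rose, with a median of 0.10, while 9 of the other 21 fell and Gyg rose, with a median of -0.12. Between the shRNAs, 6 of the 11 muscle forms were lower in Nup210 shRNA than in Mef2c shRNA arrays and none was higher, with a median of -0.23. Of the other 21, 4 were higher and 2 lower, with a median of 0.0093. Over all genes 5.11% fell and 3.05% rose with the Nup210 shRNA, and 6.42% fell and 4.34% rose with the Mef2c shRNA. Between the shRNAs, 6.93% were lower and 7.10% higher in Nup210 shRNA arrays. Among genes above background 8.52% fell and 4.62% rose with the Nup210 shRNA, and 10.7% and 6.50% with the Mef2c shRNA. Of the 11 muscle forms, Phkg1 and Ckmt2 lay below background. In a fit that also took the replicate number as a block, Eno3 and Hk2 were added to the muscle forms that fell, with either shRNA. Of the other forms, that fit added Pdk4 and Pfkp with the Nup210 shRNA and Tpi1 with the Mef2c shRNA. The counts by form also depend on where 2 genes are placed. Gys1, the glycogen synthase of muscle and of most tissues other than liver, and Ldha, the subunit of glycolytic muscle, were left among the 21. With Ldha among the muscle forms, falls were 5 of 12 and 4 of 20 with the Nup210 shRNA and 1 of 12 and 8 of 20 with the Mef2c shRNA. With Gys1 there instead, they were 6 of 12 and 3 of 20 with the Nup210 shRNA and 1 of 12 and 8 of 20 with the Mef2c shRNA.

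The sequences upstream of 6 genes are shown because these genes are among those that fell against control: Pfkp, Gys1, Pfkl and Pgk1 had the largest falls in Mef2c shRNA arrays, and Pgam2 and Ckm, chosen after their values were seen, are muscle forms that fell in Nup210 shRNA arrays. Each is the 250 bases before the start annotated by RefSeq in GRCm38.p6, read 5′ to 3′ on the strand of the gene. They lie at chr13:6648772-6649021 (Pfkp, minus strand), chr7:45434589-45434838 (Gys1, plus strand), chr10:78009808-78010057 (Pfkl, minus strand), chrX:106186850-106187099 (Pgk1, plus strand), chr11:5803797-5804046 (Pgam2, minus strand) and chr7:19410844-19411093 (Ckm, plus strand). Capitals mark the E-box CANNTG, bound by myogenic factors such as MyoD, the hypoxia core ACGTG or GCGTG, and the MEF2 consensus, each on either strand.
Pgam2: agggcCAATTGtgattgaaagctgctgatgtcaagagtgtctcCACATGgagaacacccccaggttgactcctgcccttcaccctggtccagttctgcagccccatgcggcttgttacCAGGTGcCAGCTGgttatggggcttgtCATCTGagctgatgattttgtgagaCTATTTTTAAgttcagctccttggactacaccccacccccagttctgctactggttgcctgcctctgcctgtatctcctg
Ckm: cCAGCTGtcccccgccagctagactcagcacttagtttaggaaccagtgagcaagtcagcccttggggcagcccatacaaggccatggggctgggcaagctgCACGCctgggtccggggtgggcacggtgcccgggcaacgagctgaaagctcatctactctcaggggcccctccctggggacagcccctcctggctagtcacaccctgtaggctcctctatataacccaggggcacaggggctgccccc
Pfkp: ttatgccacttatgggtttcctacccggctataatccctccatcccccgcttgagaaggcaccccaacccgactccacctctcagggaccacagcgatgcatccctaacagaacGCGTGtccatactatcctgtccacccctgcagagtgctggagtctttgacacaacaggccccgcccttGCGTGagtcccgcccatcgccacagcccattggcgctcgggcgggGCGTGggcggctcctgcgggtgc
Gys1: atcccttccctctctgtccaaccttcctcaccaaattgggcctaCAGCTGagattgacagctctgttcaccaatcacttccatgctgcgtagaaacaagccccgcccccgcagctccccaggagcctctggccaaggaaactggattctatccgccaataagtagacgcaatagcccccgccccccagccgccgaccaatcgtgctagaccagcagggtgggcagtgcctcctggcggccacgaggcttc
Pfkl: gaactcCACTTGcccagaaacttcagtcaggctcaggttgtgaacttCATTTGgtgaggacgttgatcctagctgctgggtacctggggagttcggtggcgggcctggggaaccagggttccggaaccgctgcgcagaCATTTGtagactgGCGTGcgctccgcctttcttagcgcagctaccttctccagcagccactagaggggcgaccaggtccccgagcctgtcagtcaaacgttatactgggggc
Pgk1: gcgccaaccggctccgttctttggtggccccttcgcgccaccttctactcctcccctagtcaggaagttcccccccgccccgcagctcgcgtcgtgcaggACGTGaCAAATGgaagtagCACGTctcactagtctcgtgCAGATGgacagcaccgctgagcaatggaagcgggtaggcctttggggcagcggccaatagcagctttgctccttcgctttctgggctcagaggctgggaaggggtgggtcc
The MEF2 consensus occurred in the Pgam2 sequence, at positions -80 to -71 from the start, and in no other of the 38 sequences of 29 matched genes (Slc2a3, Slc2a4 and Ampd1 had none in the table). It occurred in 2.92% of 32851 such sequences of all genes. An E-box was present in 27 of the 38 sequences and in 66.2% of all sequences, and a hypoxia core in 28 of the 38 and in 38.6% of all. CACGTG counts as both. Pgam2 has 5 E-boxes in this window, Gys1 has 1, and Pfkp has 3 hypoxia cores and no E-box. A match describes letters only, and these arrays carry no measurement of binding.

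Glucose enters muscle through Slc2a1 (GLUT1), the basal transporter of most cells, and Slc2a4 (GLUT4), the insulin-responsive transporter of muscle and fat. Slc2a1 lay between 9.87 and 9.97 (median 9.94) in Nup210 shRNA arrays, between 9.89 and 9.97 (median 9.96) in Mef2c shRNA arrays and between 10.08 and 10.31 (median 10.14) in control arrays. Every array of both shRNA groups lay below every control array. Slc2a1 fell to 85.4% of control with the Nup210 shRNA (log2 difference -0.23 ± 0.0403, limma adjusted p = 0.00131) and to 86.5% with the Mef2c shRNA (-0.21, limma adjusted p = 0.00184). The direct difference between the shRNAs was -0.02, with a 95% interval of -0.10 to 0.07. A dimmer probe set of Slc2a1 gave -0.14 and -0.01, and with the mean of its probe sets the fall in Mef2c shRNA arrays did not pass (limma adjusted p = 0.231).

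Slc2a4 had array values of 5.572 to 5.94 (median 5.89) in Nup210 shRNA, 6.15 to 6.41 (median 6.24) in Mef2c shRNA and 6.07 to 6.15 (median 6.10) in control arrays. The Nup210 shRNA arrays were below all others, and the Mef2c shRNA arrays touched the upper end of control. The transporter fell to 81.8% of control with the Nup210 shRNA (-0.29 ± 0.0635, limma adjusted p = 0.00677), and it differed by 0.16 with the Mef2c shRNA (limma adjusted p = 0.137). Nup210 shRNA arrays were lower than Mef2c shRNA arrays by a log2 difference of -0.45 (limma adjusted p = 7.14e-05). An unequal-variance test without moderation did not call the fall against control (adjusted p = 0.073), nor did a fit that omitted Nup210 shRNA arrays 2, 4 and 5 (limma adjusted p = 0.116), which had the lowest array weights. Slc2a3, the neuronal transporter GLUT3, was below background and passed neither test. Without Nup210 shRNA array 6 it was lower in Nup210 shRNA than in Mef2c shRNA arrays (limma adjusted p = 0.0326).

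Hexokinases trap glucose in the cell as glucose 6-phosphate. Hk1, the widespread form, lay at 7.57 to 7.80 (median 7.65) in Nup210 shRNA, 7.66 to 7.85 (median 7.71) in Mef2c shRNA and 7.72 to 7.96 (median 7.89) in control arrays. It fell by 0.20 ± 0.0549 on the log2 scale with the Nup210 shRNA (limma adjusted p = 0.0285), with overlapping arrays, and its difference of -0.14 with the Mef2c shRNA did not pass (limma adjusted p = 0.13). The Hk1 call lay near the threshold: omitting Nup210 shRNA array 1 (limma adjusted p = 0.0619), 2 (0.0685) or 5 (0.0702), control array 1 (0.0591), 2 (0.0503), 3 (0.0675) or 6 (0.0599), or Nup210 shRNA arrays 2, 4 and 5 together (0.339) ended it. So did fitting the compared groups alone (0.0603) and renewed quantile normalization (0.0628). Hk2, the insulin-responsive form of muscle, lay at 8.15 to 8.38 (median 8.33), 8.15 to 8.48 (median 8.31) and 8.35 to 8.54 (median 8.46) in Nup210 shRNA, Mef2c shRNA and control arrays. The groups overlapped, and neither difference from control, -0.16 and -0.15, passed (limma adjusted p = 0.125 and 0.138).

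Phosphofructokinase commits sugar phosphate to glycolysis, and its 3 genes parted. The muscle form Pfkm lay between 9.65 and 10.04 (median 9.91) in Nup210 shRNA arrays, between 9.81 and 10.13 (median 9.93) in Mef2c shRNA arrays and between 9.82 and 10.14 (median 10.004) in control arrays. These ranges overlapped, and the differences were -0.11 (95% interval -0.28 to 0.05) with the Nup210 shRNA and -0.05 (-0.21 to 0.12) with the Mef2c shRNA.

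Pfkl, the liver form, which many tissues express, lay between 8.40 and 8.63 (median 8.47), between 8.11 and 8.23 (median 8.18) and between 8.39 and 8.52 (median 8.46) in Nup210 shRNA, Mef2c shRNA and control arrays. All Mef2c shRNA arrays were below all others, while Nup210 shRNA and control arrays overlapped. Pfkl fell to 82.2% of control with the Mef2c shRNA (-0.28 ± 0.0422, limma adjusted p = 0.000193) and differed by 0.04 with the Nup210 shRNA (95% interval -0.05 to 0.12). It was higher in Nup210 shRNA than in Mef2c shRNA arrays by 0.32 (limma adjusted p = 3.59e-05).

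Pfkp, the platelet form, found in many proliferating cells, lay between 9.12 and 9.61 (median 9.49) in Nup210 shRNA, between 8.83 and 9.30 (median 9.25) in Mef2c shRNA and between 9.32 and 9.85 (median 9.63) in control arrays. The Mef2c shRNA arrays again did not overlap control, and the Nup210 shRNA arrays overlapped both. Its fall to 72.4% of control with the Mef2c shRNA (-0.47 ± 0.105, limma adjusted p = 0.00651) was the largest of the 32 genes in that comparison. The difference of -0.22 with the Nup210 shRNA did not pass (limma adjusted p = 0.256), and neither did the 0.25 by which Nup210 shRNA exceeded Mef2c shRNA arrays (limma adjusted p = 0.145). The Mef2c call was lost without control arrays 4 and 6 (limma adjusted p = 0.0593).

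Pfkfb3, which makes the activator of phosphofructokinase, the aldolase Aldoc and the triose phosphate isomerase Tpi1 passed neither test against control, with differences between -0.12 and 0.09. Gapdh, often used as a loading standard, differed by -0.02 with the Nup210 shRNA (95% interval -0.08 to 0.04) and by -0.01 with the Mef2c shRNA (-0.07 to 0.05). The phosphoglycerate kinase Pgk1, which makes the earliest ATP of the pathway, lay between 11.38 and 11.48 (median 11.47) in Nup210 shRNA, between 11.14 and 11.36 (median 11.28) in Mef2c shRNA and between 11.47 and 11.56 (median 11.501) in control arrays. It stood lower in every Mef2c shRNA array than in any array of the other groups. It fell to 84.3% of control with the Mef2c shRNA (-0.25 ± 0.0404, limma adjusted p = 0.000465) and differed by -0.06 with the Nup210 shRNA (limma adjusted p = 0.462). Nup210 shRNA arrays were higher than Mef2c shRNA arrays by 0.19 (limma adjusted p = 0.00318).

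Phosphoglycerate mutase, which moves the phosphate group before the enolase step, has a muscle form and a widespread partner. Pgam2, the muscle form, lay between 5.93 and 6.46 (median 6.30) in Nup210 shRNA arrays, between 6.74 and 7.11 (median 6.91) in Mef2c shRNA arrays and between 6.59 and 6.83 (median 6.73) in control arrays. Nup210 shRNA arrays lay below all others, and the other groups overlapped. Pgam2 stood at 72.6% of control with the Nup210 shRNA (log2 difference -0.46) and at 63.9% of its level in Mef2c shRNA arrays (-0.65 ± 0.0807, limma adjusted p = 1.97e-05). The difference of 0.18 with the Mef2c shRNA did not pass (limma adjusted p = 0.172).

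Pgam1, the form of most tissues, lay between 9.38 and 9.53 (median 9.42), between 9.13 and 9.40 (median 9.27) and between 9.37 and 9.55 (median 9.41) in Nup210 shRNA, Mef2c shRNA and control arrays. It fell with the Mef2c shRNA (-0.18 ± 0.0492, 88.5% of control, limma adjusted p = 0.0262), although the arrays overlapped control. A dimmer Pgam1 probe set gave 0.19 in each comparison with control and passed in neither, so the probe sets of Pgam1 disagree in direction for the Mef2c shRNA. The fall was lost without Mef2c shRNA array 3 (limma adjusted p = 0.0629) or 5 (0.0618), control array 4 (0.069) or 6 (0.0628), and control arrays 4 and 6 together (0.176). Fitting the compared groups alone (limma adjusted p = 0.0527) and renewed quantile normalization (0.0607) ended it too. An unequal-variance test without moderation did not call it (adjusted p = 0.0544), and averaging the probe sets reversed its direction. Directly compared, Pgam1 was higher in Nup210 shRNA than in Mef2c shRNA arrays by 0.18 (limma adjusted p = 0.0198), and omitting Nup210 shRNA array 6 (0.0502) or Mef2c shRNA array 3 (0.0511), or averaging the probe sets (0.368), ended that call.

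Eno3, the muscle enolase, lay at 12.25 to 12.60 (median 12.51) in Nup210 shRNA, 12.30 to 12.62 (median 12.53) in Mef2c shRNA and 12.50 to 12.74 (median 12.68) in control arrays. The groups overlapped, and neither difference, -0.17 and -0.15, passed (limma adjusted p = 0.134 and 0.185). Pkm, the pyruvate kinase of muscle and most other tissues, lay between 11.73 and 11.79, between 11.71 and 11.78 and between 11.84 and 11.91 in Nup210 shRNA, Mef2c shRNA and control arrays, with no overlap of either shRNA group with control. The falls were small, to 92.8% with the Nup210 shRNA (-0.11 ± 0.0309, limma adjusted p = 0.038) and to 92.2% with the Mef2c shRNA (-0.12, limma adjusted p = 0.019).

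Both Pkm calls lay near the threshold. The Nup210 call was lost on leaving out any 1 of Nup210 shRNA arrays 1 (limma adjusted p = 0.0551), 2 (0.0729), 3 (0.0523), 5 (0.0779) and 6 (0.0646), Mef2c shRNA array 4 (0.0503), and any 1 of the 6 control arrays (0.0545 to 0.0909). Omitting Nup210 shRNA arrays 2, 4 and 5 (0.212) or control arrays 4 and 6 (0.14) ended it as well, and omitting those control arrays ended the Mef2c call (0.0855), as did renewed quantile normalization (0.0778).

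Pyruvate is reduced to lactate by lactate dehydrogenase or enters mitochondria through pyruvate dehydrogenase. Ldha, the subunit that predominates in glycolytic muscle, lay between 7.43 and 7.70 (median 7.60), between 7.46 and 7.70 (median 7.54) and between 7.69 and 7.81 (median 7.72) in Nup210 shRNA, Mef2c shRNA and control arrays. Ldhb, the heart subunit, lay between 5.95 and 6.39 (median 6.16), between 6.40 and 6.58 (median 6.48) and between 5.93 and 6.42 (median 6.27). Ldha lay mostly below control in both shRNA groups, with a slight overlap, whereas Ldhb lay near or above the top of the control range with the Mef2c shRNA. Ldha fell with the Mef2c shRNA (-0.18 ± 0.0516, 88.1% of control, limma adjusted p = 0.0279) and its -0.14 with the Nup210 shRNA did not pass (limma adjusted p = 0.11). The difference of 0.23 in Ldhb with the Mef2c shRNA did not pass (limma adjusted p = 0.0773), except on leaving out control array 5 (0.0464). Directly compared, Ldhb was lower in Nup210 shRNA than in Mef2c shRNA arrays (-0.31, limma adjusted p = 0.0143), which no longer passed when Nup210 shRNA arrays 2, 4 and 5 were omitted (0.287).

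Pdk4, the kinase that shuts off pyruvate dehydrogenase during fasting, fell to 84.9% of control with the Mef2c shRNA (-0.24 ± 0.0669, limma adjusted p = 0.0278). Its -0.21 with the Nup210 shRNA did not pass (limma adjusted p = 0.0633). The call of Pdk4 was lost without Mef2c shRNA array 2 (limma adjusted p = 0.0704) or 4 (0.0668) or control array 1 (0.0587) or 3 (0.063). That of Ldha was lost without Mef2c shRNA array 4 (0.0667), 5 (0.0605) or 6 (0.0645), control array 1 (0.0544), 2 (0.0656) or 6 (0.0514), and control arrays 4 and 6 together (0.0826).

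Among 9 glycogen genes, Pygm and Gys1 fell with the Nup210 shRNA, and Gys1 fell and Gyg rose with the Mef2c shRNA. Pygm, the muscle phosphorylase that releases glucose 1-phosphate from glycogen, lay between 9.83 and 10.22 (median 10.06) in Nup210 shRNA, between 10.32 and 10.52 (median 10.43) in Mef2c shRNA and between 10.29 and 10.61 (median 10.43) in control arrays. The Nup210 shRNA arrays lay below all others, and Mef2c shRNA and control arrays overlapped around nearly the same median. Pygm stood at 75.2% of control with the Nup210 shRNA (log2 difference -0.41) and differed by -0.02 with the Mef2c shRNA (95% interval -0.18 to 0.13). It was lower in Nup210 shRNA than in Mef2c shRNA arrays (-0.39, limma adjusted p = 0.000997). Omitting Nup210 shRNA arrays 2, 4 and 5 took the fall just past the threshold (limma adjusted p = 0.0532).

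Its partner Pygb, the brain form found in many tissues, lay between 7.90 and 8.03 (median 7.97), between 7.76 and 7.86 (median 7.83) and between 7.76 and 7.91 (median 7.88) in Nup210 shRNA, Mef2c shRNA and control arrays. Nup210 shRNA arrays lay near or above the top of both other groups. The difference of 0.12 from control did not pass (limma adjusted p = 0.0763), and that of 0.16 from Mef2c shRNA arrays did (limma adjusted p = 0.00735). Omitting Nup210 shRNA arrays 2, 4 and 5 ended the last call (0.0645), whereas the difference from control passed with dim genes left out (0.03) and after renewed quantile normalization (0.0473).

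Gys1, the synthase that lengthens glycogen chains, changed by nearly the same amount with either shRNA. It lay between 9.62 and 9.76 (median 9.66) in Nup210 shRNA, between 9.58 and 9.77 (median 9.66) in Mef2c shRNA and between 9.96 and 10.09 (median 9.99) in control arrays. Neither shRNA group overlapped control. The synthase fell to 79.5% of control with the Nup210 shRNA (-0.33 ± 0.0426, limma adjusted p = 8.08e-05) and to 79.2% with the Mef2c shRNA (-0.34, limma adjusted p = 4.03e-05). The direct difference between the shRNAs was 0.00, with a 95% interval of -0.08 to 0.09.

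Gyg, glycogenin, on which a new glycogen particle is begun, lay between 10.13 and 10.27 (median 10.23), between 10.31 and 10.51 (median 10.38) and between 10.11 and 10.26 (median 10.18) in Nup210 shRNA, Mef2c shRNA and control arrays. It rose to 116% of control with the Mef2c shRNA (0.21 ± 0.0457, limma adjusted p = 0.00492), with no overlap, and differed by 0.02 with the Nup210 shRNA (limma adjusted p = 0.834). It was lower in Nup210 shRNA than in Mef2c shRNA arrays (-0.19, limma adjusted p = 0.00895), which no longer passed with Nup210 shRNA arrays 2, 4 and 5 omitted (0.123). The branching enzyme Gbe1, the phosphorylase kinase subunits Phka1 and Phkg1, the UDP-glucose maker Ugp2 and the glycogen-targeting phosphatase subunit Ppp1r3c passed neither test against control. Phkg1, which was below background, was lower in Nup210 shRNA than in Mef2c shRNA arrays (-0.18, limma adjusted p = 0.0251). Omitting Nup210 shRNA array 2 (0.0539) or 4 (0.0515), or Mef2c shRNA array 1 (0.0512), 2 (0.0521) or 3 (0.0532), ended the Phkg1 call.

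**Figure D2:**
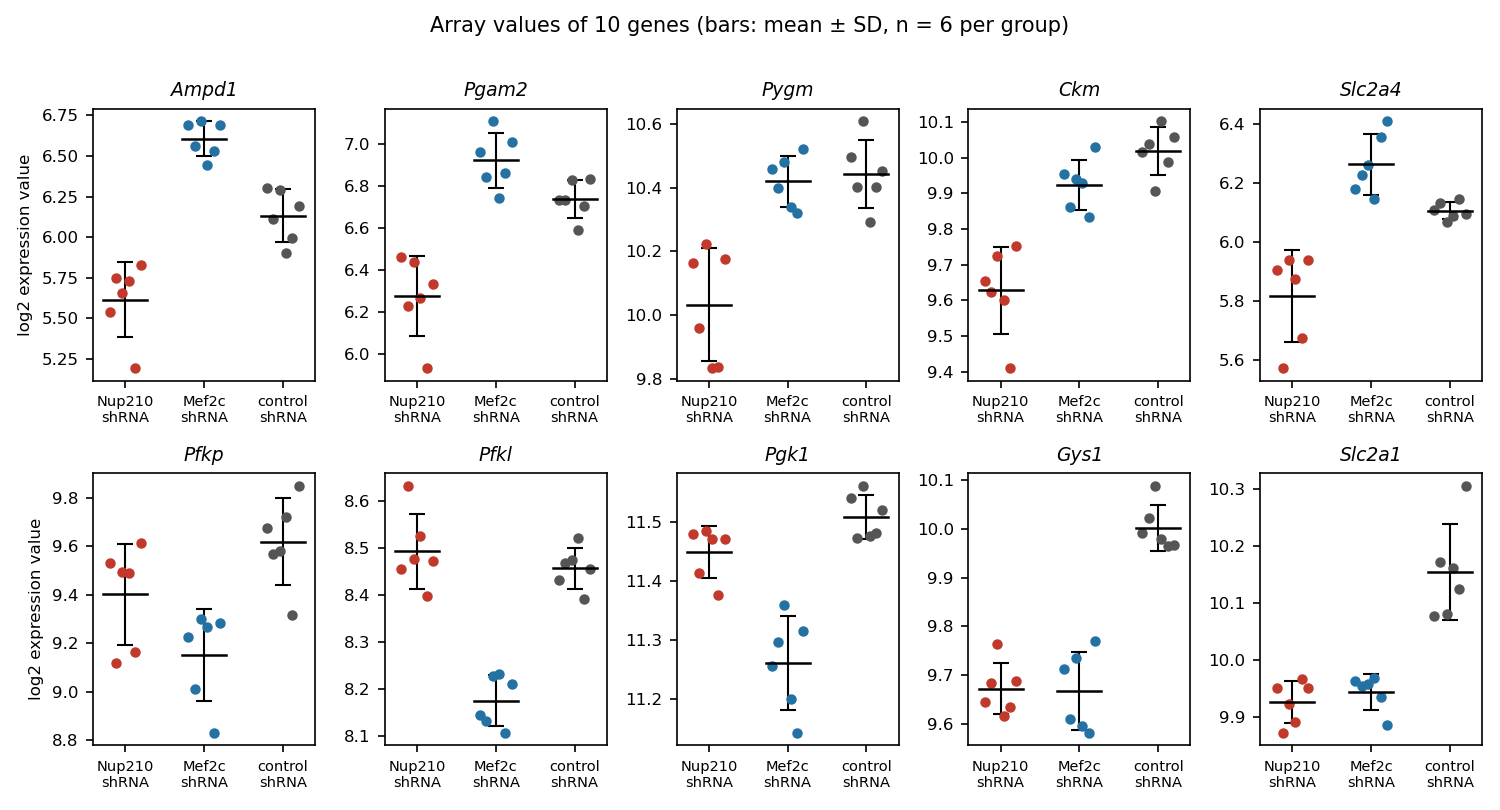
Log2 expression of 10 genes in each array (points), with the mean and SD of the 6 Nup210 shRNA, 6 Mef2c shRNA and 6 control arrays; each panel has its own vertical range. Pgam2, Pygm, Ckm and Slc2a4 are lowest in Nup210 shRNA arrays, Pfkl and Pgk1 are lowest in Mef2c shRNA arrays, and Gys1 and Slc2a1 are below control in both.

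Creatine kinase passes phosphate between ATP and creatine, and AMP deaminase removes AMP during heavy ATP use. Ckm, the cytosolic muscle form, lay between 9.41 and 9.75 (median 9.64) in Nup210 shRNA, between 9.83 and 10.03 (median 9.93) in Mef2c shRNA and between 9.91 and 10.10 (median 10.03) in control arrays. The Nup210 shRNA arrays lay below all others, while Mef2c shRNA and control arrays overlapped. Ckm fell to 76.3% of control with the Nup210 shRNA (-0.39 ± 0.0547, limma adjusted p = 0.000167) and differed by -0.09 with the Mef2c shRNA (95% interval -0.21 to 0.02). It was lower in Nup210 shRNA than in Mef2c shRNA arrays (-0.30, limma adjusted p = 0.000833). A dimmer probe set of Ckm, which averaged 5.55 and so lay close to background, gave -0.28 with the Nup210 shRNA and -0.03 with the Mef2c shRNA. Neither difference of that probe set passed (limma adjusted p = 0.0652 and 0.914 over all singly naming probe sets). Ckmt2, the mitochondrial muscle form, was below background and passed neither test.

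Ampd1, the AMP deaminase of skeletal muscle, moved in opposite directions. It lay between 5.19 and 5.83 (median 5.69) in Nup210 shRNA arrays, between 6.45 and 6.71 (median 6.63) in Mef2c shRNA arrays and between 5.90 and 6.31 (median 6.15) in control arrays. No group overlapped another. Ampd1 fell to 69.8% of control with the Nup210 shRNA (-0.52 ± 0.0958, limma adjusted p = 0.00188) and rose to 139% with the Mef2c shRNA (0.47 ± 0.0958, limma adjusted p = 0.00289). Between the shRNAs its level in Nup210 shRNA arrays was 50.3% of that in Mef2c shRNA arrays (-0.99, limma adjusted p = 1.24e-06), the largest difference of the 32 genes in any of the 3 comparisons. Its values lie close to the background of 5.47, where log2 differences of arrays are compressed.

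The balance of muscle and other forms was then measured within each array, as the log2 value of the muscle gene minus that of its partner. This cancels a log2 shift of equal size in both. Differences are compressed near background, so a shift common to a dim and a bright gene may not cancel fully. Slc2a4, for example, averaged 6.06 over all arrays and Slc2a1 10.01. Of 9 pairs considered, 7 could be measured, and each was compared with an exact two-sided permutation test over all 924 divisions of 12 arrays, adjusted over 21 tests (7 pairs in 3 comparisons). The smallest unadjusted p this allows is 0.00216. The test passed for 2 pairs in Nup210 shRNA against control, 5 pairs in Mef2c shRNA against control, and 6 pairs in Nup210 shRNA against Mef2c shRNA arrays.

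With the Nup210 shRNA, the muscle form lost ground for phosphorylase and mutase. Taking the control mean as 0, Pygm minus Pygb lay between -0.78 and -0.32 (median -0.48) in Nup210 shRNA, between -0.10 and 0.12 (median 0.02) in Mef2c shRNA and between -0.15 and 0.22 (median -0.06) in control arrays. The Nup210 shRNA arrays lay below all others. The difference from control was -0.53 with the Nup210 shRNA (exact permutation adjusted p = 0.00649) and 0.022 with the Mef2c shRNA (0.782). Pgam2 minus Pgam1 lay between -0.77 and -0.26 (median -0.46) in Nup210 shRNA, between 0.12 and 0.68 (median 0.33) in Mef2c shRNA and between -0.26 and 0.12 (median 0.03) in control arrays. The shRNA groups lay on opposite sides of control, each touching its edge. The difference was -0.46 with the Nup210 shRNA and 0.36 with the Mef2c shRNA (exact permutation adjusted p = 0.00826 each). With the mean of all probe sets of each gene the Mef2c value was 0.18 and did not pass (exact permutation adjusted p = 0.199).

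With the Mef2c shRNA, the balance shifted toward the muscle form for the transporters and phosphofructokinases. Slc2a4 minus Slc2a1 lay between -0.25 and 0.06 (median 0.01) in Nup210 shRNA, between 0.22 and 0.57 (median 0.33) in Mef2c shRNA and between -0.16 and 0.08 (median 0.02) in control arrays. The Mef2c shRNA arrays lay above all others, and the difference from control was 0.37 (exact permutation adjusted p = 0.00649), whereas that of -0.062 with the Nup210 shRNA did not pass (0.435). In this pair it was Slc2a1, and not Slc2a4, that passed the single-gene test with the Mef2c shRNA. Averaging probe sets ended that fall of Slc2a1 (limma adjusted p = 0.231), while the pair difference was then 0.27 and passed (exact permutation adjusted p = 0.00909). Pfkm minus Pfkl differed by 0.23 with the Mef2c shRNA (exact permutation adjusted p = 0.0105) and by -0.15 with the Nup210 shRNA (0.331). Pfkm minus Pfkp differed by 0.42 with the Mef2c shRNA (0.00649) and by 0.11 with the Nup210 shRNA (0.433). In both phosphofructokinase pairs it was Pfkl or Pfkp, and not Pfkm, that passed the single-gene test. Pfkm enters both pairs, so these are not independent.

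Lactate dehydrogenase shifted the other way. Ldha minus Ldhb lay between -0.22 and 0.11 (median -0.07) in Nup210 shRNA, between -0.58 and -0.19 (median -0.45) in Mef2c shRNA and between -0.22 and 0.29 (median 0.01) in control arrays. It was lower with the Mef2c shRNA by a difference of -0.42 (exact permutation adjusted p = 0.00826), and the -0.067 with the Nup210 shRNA did not pass (0.58). Hk2 minus Hk1 passed in none of the 3 comparisons, with differences of 0.042, -0.010 and 0.052 for Nup210 shRNA against control, Mef2c shRNA against control and Nup210 shRNA against Mef2c shRNA. In the direct comparison of the shRNAs, the other 6 pairs passed, and for Ldha minus Ldhb this was lost without Nup210 shRNA arrays 2, 4 and 5 (exact permutation adjusted p = 0.0577).

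**Figure D3:**
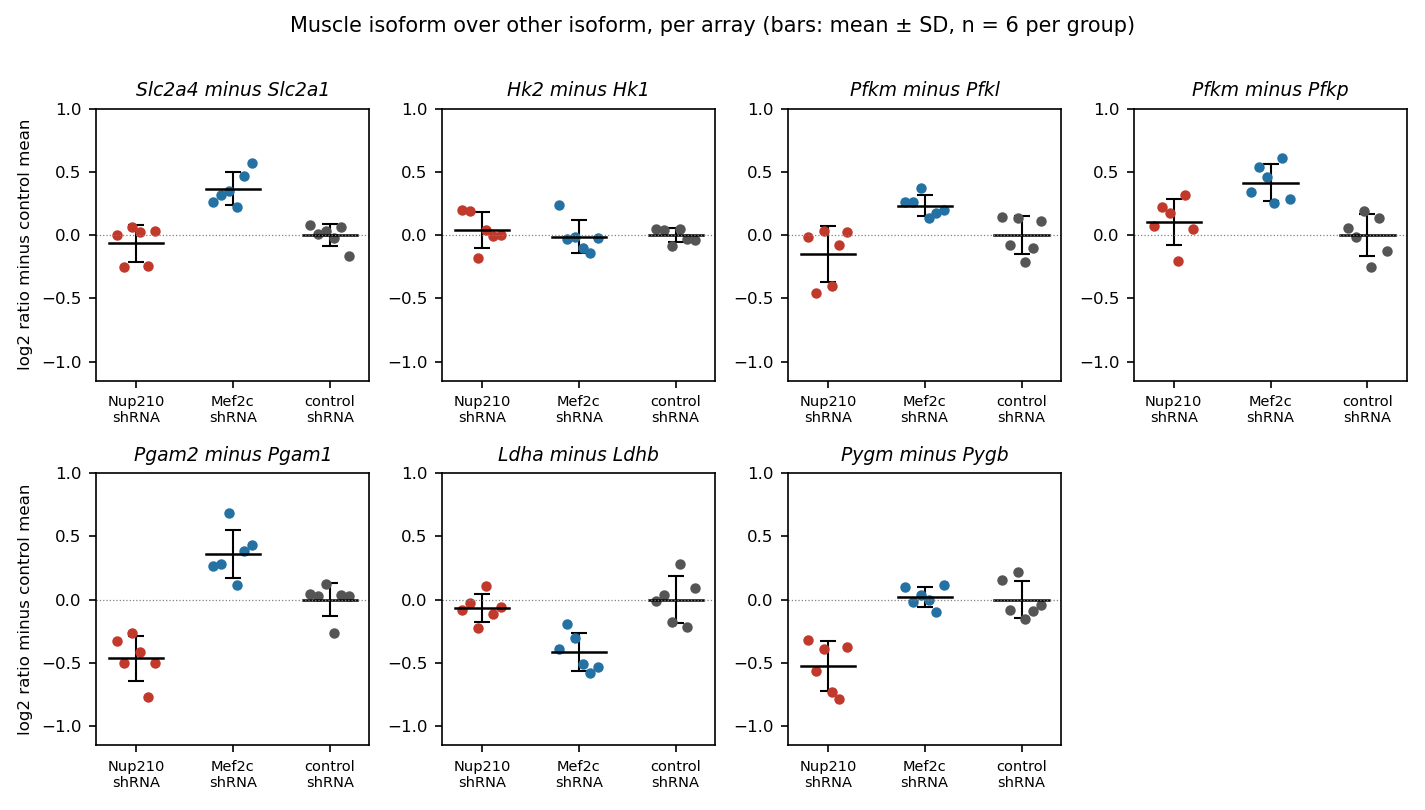
Log2 value of the muscle gene minus that of its partner in each array (points), relative to the control mean, with the mean and SD of 6 arrays a group, for 7 pairs. Pygm minus Pygb and Pgam2 minus Pgam1 are low in Nup210 shRNA arrays, and the transporter and phosphofructokinase pairs are high and the lactate dehydrogenase pair low in Mef2c shRNA arrays.

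In each group the arrays numbered 5 and 6 lay on opposite sides of the group mean for most of the 32 genes. In array 5, 26 of the 32 genes lay below the group's own mean with the Nup210 shRNA, 27 with the Mef2c shRNA and 23 in control, and in array 6 the counts were 7, 8 and 9. Other arrays came near or past these counts, such as Mef2c shRNA array 3 with 7 and control array 4 with 22. Against the control mean, 19 to 27 of the 32 genes were lower in each Nup210 shRNA array and 18 to 22 in each Mef2c shRNA array. In the control arrays themselves the counts ran from 9 to 23, so the Mef2c shRNA counts lay within the control range. Leaving out Nup210 shRNA arrays 2, 4 and 5, whose array weights were 0.724, 0.621 and 0.744, left 5 falls against control: Ampd1 (limma adjusted p = 0.0164), Ckm (0.00609), Gys1 (0.00646), Pgam2 (0.0316) and Slc2a1 (0.0354). With the Mef2c shRNA, leaving out control arrays 4 and 6 left 5 falls.

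**Figure D4:**
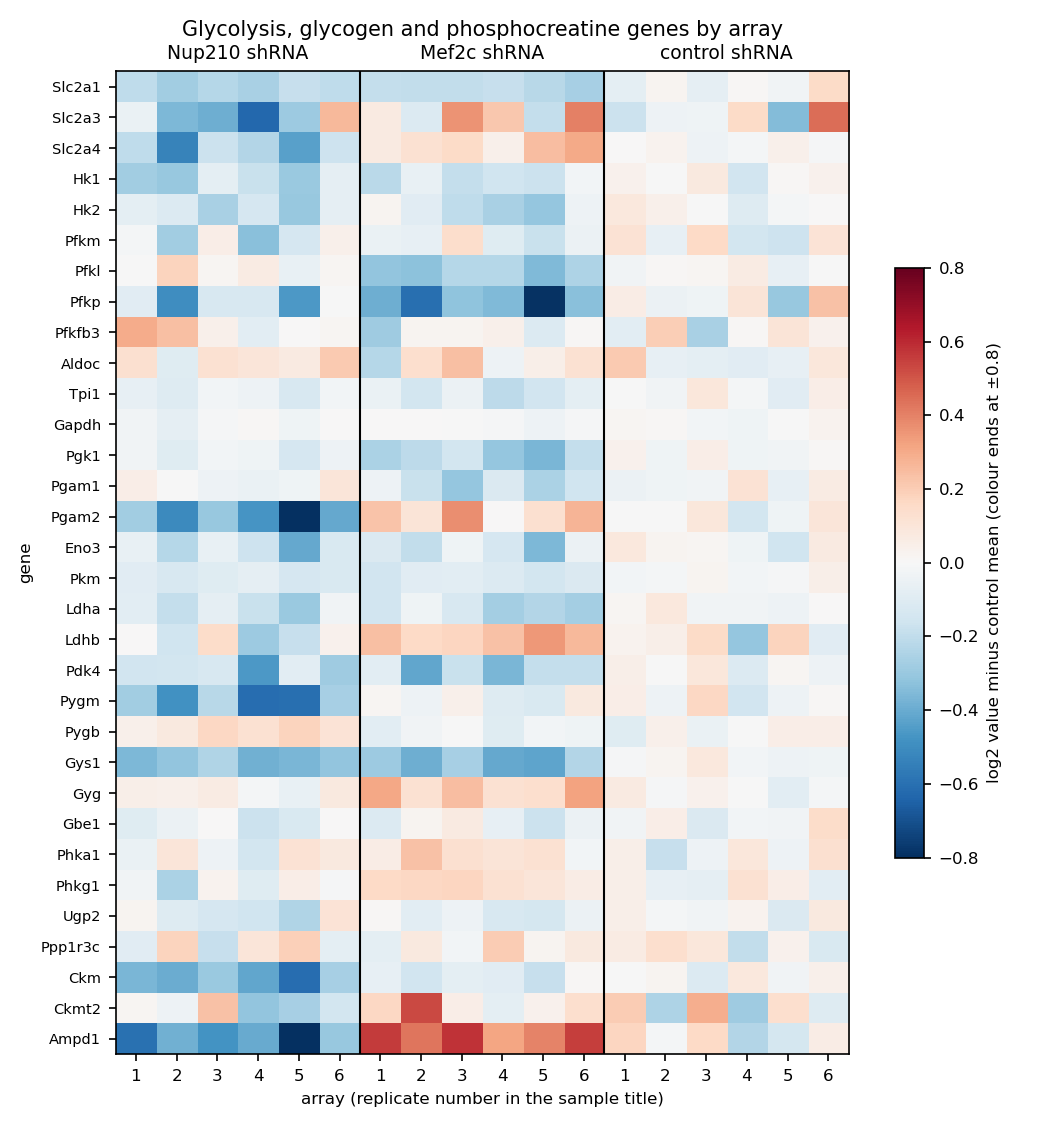
Log2 value of each of the 32 genes (rows) in each of the 18 arrays (columns), minus the gene's control mean; blue is lower, red is higher, and the colours end at 0.8 on either side. Slc2a1 and Gys1 are below 0 in all 12 shRNA arrays, as are Hk1, Pfkp, Tpi1, Pgk1, Eno3, Pkm, Ldha and Pdk4. Ampd1, Pgam2 and Slc2a4 are below 0 in all Nup210 shRNA and above 0 in all Mef2c shRNA arrays.

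Of 63 further genes of these pathways, 55 were measured. With the Nup210 shRNA 9 fell and 2 rose, and with the Mef2c shRNA 8 fell and 4 rose, with medians of -0.019 and 0.015. Over all genes 5.11% fell and 3.05% rose with the Nup210 shRNA, and 6.42% fell and 4.34% rose with the Mef2c shRNA. Ckb, the brain-type creatine kinase that myoblasts also make, lay between 9.98 and 10.49 (median 10.31) in Nup210 shRNA, between 10.20 and 10.65 (median 10.45) in Mef2c shRNA and between 10.70 and 10.999 (median 10.79) in control arrays. It fell with both shRNAs, by 0.54 ± 0.0836 with the Nup210 shRNA (limma adjusted p = 0.000454) and by 0.37 with the Mef2c shRNA (limma adjusted p = 0.00661). Thus Ckm and Ckb both fell with the Nup210 shRNA, and Ckb but not Ckm passed the test with the Mef2c shRNA. Stbd1, a glycogen-binding protein, fell with the Nup210 shRNA (-0.52 ± 0.0666, limma adjusted p = 7.16e-05), with no array overlapping control, and differed by -0.07 with the Mef2c shRNA (limma adjusted p = 0.626). Gatm, which carries out the committing step of creatine synthesis, fell with the Nup210 shRNA (-0.35 ± 0.1003, limma adjusted p = 0.0381). Whether the calls of these further genes hold when arrays are left out or the processing is changed was not examined.

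Among these further genes, Pdp1 and Slc16a3 had the largest changes with the Mef2c shRNA, with Ckb close behind. Of the 13 further genes of pyruvate fate measured, 2 rose and 3 fell with the Mef2c shRNA, with a median difference of 0.0078. Pdp1, the phosphatase that switches pyruvate dehydrogenase back on, lay between 8.82 and 8.96 in Mef2c shRNA and between 8.37 and 8.65 in control arrays. It rose with the Mef2c shRNA (0.40 ± 0.0512, limma adjusted p = 3.88e-05), whereas Pdk4, the opposing kinase, fell. That Pdk4 call was lost in 4 of 18 omissions of a single array. Slc16a3, the lactate exporter MCT4, lay between 6.77 and 7.06 in Nup210 shRNA, between 6.69 and 7.02 in Mef2c shRNA and between 7.15 and 7.36 in control arrays. It fell with both, by 0.30 with the Nup210 shRNA (limma adjusted p = 0.00421) and by 0.38 ± 0.0609 with the Mef2c shRNA (limma adjusted p = 0.000387).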

How the data were processed

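Total RNA of 18 one-colour arrays, 6 for each of 3 shRNAs, was analysed. The deposited values are on a log2 scale. Per the submitters' processing notes, the authors used RMA and Partek, with neither version nor settings stated, and RMA compresses differences near background. The table holds 41345 probe sets, of which 23521 name 1 gene, 1814 several and 16010 none. The brightest singly naming probe set stood for each of 22180 genes. Groups came from the sample labels. One mean per group was fitted over all 18 arrays with limma 3.58.1 (lmFit and eBayes) in R 4.3.3, leaving 15 residual degrees of freedom. The median standard error of a difference was 0.080, and the number of arrays limits the precision. Isoform pairs were compared with exact permutation tests in Python 3.11.15. The fit was tested on simulated data.

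All listed genes could be named. Array values are given for those past 0.05 against control with a log2 difference of at least 0.25, and for isoform pairs. Of the further pathway genes the 3 largest changes per comparison are named. Array values are also given for some genes outside that rule. The members, gene lists and isoform pairs were chosen with earlier results of these data known. Alternatives covered normalization, probe set choice, dim genes, array weights, the prior, the fit and leaving out arrays. Promoter sequences are from RefSeq, GRCm38.p6.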

Additional observations from a re-analysis of the deposited data

Results flagged for a closer look

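Single arrays far from the rest of their group were looked for in the 96 groups of 6 arrays formed by the 32 genes, by Dixon's test at its 95% critical value, which compares the gap to the nearest array with the group's range. Chance gives about 1 such group in 20, and 2 of the 96 groups were flagged, a smaller share. Hk1 was lowest in control shRNA array 4, at 7.72 against 7.87 to 7.96 in the other control arrays, a gap of 0.642 of the range. Gapdh was lowest in Mef2c shRNA array 5, at 13.15 against 13.18 to 13.19 in the other Mef2c shRNA arrays, a gap of 0.723 of a narrow range.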

How the results depend on the processing

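With Nup210 shRNA against control, 9 genes fell and 0 rose. Leaving out single arrays gave 7 to 9 falls and 0 rises, omitting Nup210 shRNA arrays 2, 4 and 5 gave 5 falls, and renewed quantile normalization and leaving out dim genes each gave 1 rise (Pygb). With Mef2c shRNA against control, 9 fell and 2 rose. Leaving out single arrays gave 7 to 9 falls and 2 to 3 rises, a threshold of 0.01 gave 5 falls, omitting control arrays 4 and 6 gave 5 falls, and omitting Nup210 shRNA arrays 2, 4 and 5 gave 4 rises (Ldhb and Slc2a4 added). Between the shRNAs, 4 genes were higher and 8 lower in Nup210 shRNA arrays, single omissions gave 3 to 4 and 7 to 9, and omitting Nup210 shRNA arrays 2, 4 and 5 gave 5 lower. The passing isoform pairs numbered 2, 5 and 6 in the 3 comparisons with any single array left out. The Pgam1 difference with the Mef2c shRNA reversed to 0.0074 (limma adjusted p = 0.959) on averaging its probe sets. The cause of these changes was not tested, except that a stricter threshold passes fewer genes by construction.

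The replicate numbers were not taken to pair the arrays, since the labels name no shared source and not every correlation passed 0.1. Deviations of same-numbered arrays correlated at -0.18 to 0.17 between Nup210 shRNA and control, -0.028 to 0.20 between Mef2c shRNA and control and -0.047 to 0.22 between the shRNAs, highest for arrays numbered 5 in each. Of 12 arrays 6, 8 and 8 correlated best with their own number, a hint from the data and not the design. With the replicate block, falls and rises were 13 and 0 with the Nup210 shRNA, 12 and 2 with the Mef2c shRNA, and 9 and 5 between them. Eno3 (limma adjusted p = 0.00705), Hk2 (0.0322), Pdk4 (0.0162) and Pfkp (0.0107) were added to the falls with the Nup210 shRNA, and Eno3 (0.0148), Hk2 (0.0393) and Tpi1 (0.0377) to those with the Mef2c shRNA. The paired sign-flip test with the replicate block passed 0, 0 and 0 isoform pairs, where 6 pairs allow no unadjusted p below 0.03125 and the lowest adjusted p was 0.0505. Median centring changed the split over all genes to 395 higher and 1177 lower with the Nup210 shRNA, against 676 and 1133 as deposited.

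Of all recomputed values of single genes and pairs, 3237 kept their side of the threshold, 92 lost a call, 21 gained one and 1 reversed. A reversal was counted only where the value passed before or after the change, so the 3237 include changes of sign. For example, Slc2a4 minus Slc2a1 in Nup210 shRNA against control went from -0.062 to 0.033 without Nup210 shRNA arrays 2, 4 and 5, passing in neither. The 4 dim genes have no value where dim genes are left out.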
